A study of Mus musculus with 6 samples.

Results

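The Ms4a cluster genes described here are 8 neighbouring mouse genes, Ms4a1, Ms4a3, Ms4a4b, Ms4a4c, Ms4a6b, Ms4a6c, Ms4a6d and Ms4a7. Every probe set that the platform annotation assigns to one of these symbols was taken, which gave 8 of the 18193 genes and 16 of the 45037 probe sets on the Affymetrix Mouse Genome 430 2.0 array. Of these, 11 probe sets of 7 genes passed the filter on low values, and 5 did not, among them both probe sets of Ms4a1. RNA came from granulocyte/macrophage progenitors (GMPs), the bone marrow cells from which granulocytes and monocytes develop, with 2 arrays for each of 3 genotypes. The groups were mice deficient in both IRF4 and IRF8 (IRF4/8 DKO; a male and a female, both aged 16 weeks), mice deficient in IRF8 alone (IRF8 KO; a female of 12 weeks and a male of 22 weeks) and wild-type mice (WT; a male of 12 weeks and a female of 19 weeks), all labelled BL6. IRF4 and IRF8 are interferon regulatory factors, transcription factors that act in lymphoid and myeloid cells. Cells of all mice were sorted through the same gate, negative for lineage markers, IL-7R and Sca1 and positive for Kit, CD34 and high levels of the Fc gamma receptors II and III. Each array held 1 mouse, and no source used here gives the alleles behind the knockouts.

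The MS4A genes encode small proteins that cross the membrane several times, with both ends in the cytoplasm, and most of them are expressed in blood cells. Ms4a1 encodes CD20 of B cells, and Ms4a3 encodes HTm4, which marks GMPs and their progeny. Ms4a4b and Ms4a6b are known from mouse T cells, where they act on proliferation and co-stimulation, whereas Ms4a6c, Ms4a6d and Ms4a7 are known from monocytes and macrophages.

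Values are the deposited intensities on a linear scale. Median intensity ran from 34.1 to 45.27 per array, and probe sets were tested where at least 2 arrays exceeded their own 40th percentile (19.44 to 25.91). Fold changes are on the scale log2(intensity + 10.5), which understates the change of dim probe sets. All 12 markers of GMPs and the sort gate passed the filter, their summed intensity was 58799.8 and 70999.5 in IRF4/8 DKO, 54749 and 62018 in IRF8 KO, and 47677 and 56041 in WT, and none of the 12 passed the limma test against WT (unadjusted p under 0.05 for 3 in IRF4/8 DKO and 2 in IRF8 KO). The gate markers differed in direction. Cd34 read 590 and 509 in IRF4/8 DKO, 440.3 and 669 in IRF8 KO, and 1747 and 1401 in WT, with every knockout array below WT (log2 fold change -1.50 in IRF4/8 DKO, adjusted p = 0.213, and -1.51 in IRF8 KO, adjusted p = 0.162). Fcgr3 read 2516 and 5863 in IRF4/8 DKO, 2618 and 6315 in IRF8 KO, and 1089.6 and 1259 in WT, with every knockout array above WT (1.70 in IRF4/8 DKO, adjusted p = 0.271, and 1.79 in IRF8 KO, adjusted p = 0.177). The 2 arrays of a genotype correlated at 0.9519 in IRF4/8 DKO, 0.9122 in IRF8 KO and 0.9683 in WT, while IRF4/8 DKO replicate 1 and WT replicate 2 correlated at 0.9604. Neither targeted gene read lower throughout the arrays labelled as its knockout. Irf8 probe set 1416714_at read 2611 and 4778 in IRF4/8 DKO, 3811 and 2602 in IRF8 KO, and 2588 and 3052 in WT. Irf8 probe set 1448452_at read 934 and 1899.8 in IRF4/8 DKO, 1333 and 1131 in IRF8 KO, and 507 and 704 in WT, with both knockout genotypes above WT without overlap (log2 fold change 1.14, limma adjusted p = 0.44, and 1.03, adjusted p = 0.341). Irf4 probe set 1421173_at read 66.0 and 54.6 in IRF4/8 DKO, 13.8 and 7.66 in IRF8 KO, and 32.1 and 23.5 in WT, highest in IRF4/8 DKO, and probe set 1421174_at read 11.8 and 20.2 in IRF4/8 DKO, 29.7 and 14.1 in IRF8 KO, and 33.1 and 16.8 in WT. Whether these values go with the labels cannot be judged, since no source used here gives the alleles or the positions of the probes. The names IRF4/8 DKO, IRF8 KO and WT therefore stand throughout for the arrays labelled so, and every direction below rests on those labels.

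In GMPs of both knockout genotypes the 3 Ms4a6 genes lay 1.83- to 4.56-fold above WT on their brighter probe sets, without overlap between arrays, Ms4a4c read lower in IRF4/8 DKO, and Ms4a3 was bright in all 6 arrays. No probe set of the 8 genes passed the limma test after Benjamini-Hochberg adjustment over all 29783 probe sets tested, in any comparison. In IRF4/8 DKO against WT, 0 of the 11 tested member probe sets were called, against 0.299% of all probe sets. At an unadjusted p under 0.05 the member probe sets numbered 6 of 11 (4 higher, 2 lower), against 9.05% of all, and 7 of 11 had arrays that did not overlap (4 higher, 3 lower), against 43.6% of all. In both counts the 4 higher belonged to Ms4a6b, Ms4a6c and Ms4a6d, and 2 of the lower were both probe sets of Ms4a4c. Probe sets of the same gene are repeat measurements, so these counts are not counts of separate genes. In IRF8 KO against WT, 0 of 11 were called, against 0.0302% of all, 3 of 11 had an unadjusted p under 0.05 (all 3 higher), against 13.5% of all, and 4 of 11 did not overlap (all 4 higher), against 45.7% of all. The share of non-overlapping members in IRF8 KO was near that background. In IRF4/8 DKO against IRF8 KO, 0 of 11 were called, against 0% of all, 0 of 11 had an unadjusted p under 0.05, against 8.52%, and 2 of 11 did not overlap (both lower), against 36.6%. For the mean of both knockout genotypes against WT, a contrast that uses the same arrays again, 0 of 11 were called, against 0.601% of all. In that contrast 5 of 11 had an unadjusted p under 0.05 (4 higher, 1 lower), against 11.6%, and 3 of 11 had no overlap (all higher), against 21%. The median log2 fold change over the 11 member probe sets was 0.37 in IRF4/8 DKO and 0.30 in IRF8 KO against WT, where all tested probe sets had medians of -0.04 and -0.06.

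**Figure D1:**
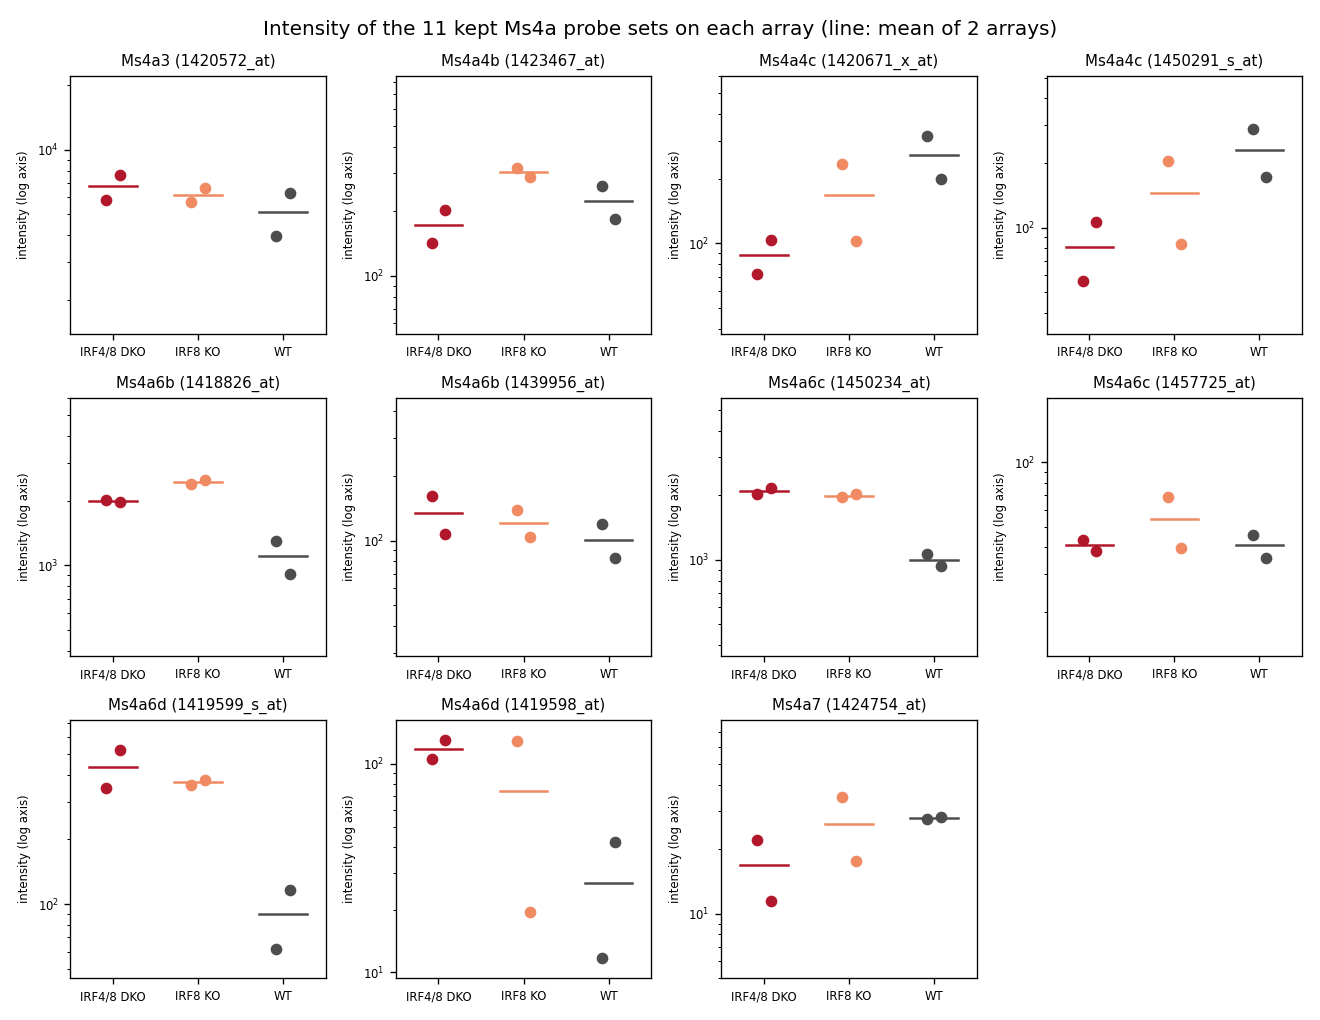
Intensity (log axis) of the 11 tested Ms4a probe sets on each array, by genotype, 1 panel per probe set, with the mean of the 2 arrays as a line. The brightest probe sets of Ms4a6b, Ms4a6c and Ms4a6d show every IRF4/8 DKO and IRF8 KO array above both WT arrays, and Ms4a4c shows both IRF4/8 DKO arrays below both WT arrays.

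Ms4a3, the gene of the progenitor marker HTm4, had intensities of 5852 and 7660 in IRF4/8 DKO, 5733 and 6634 in IRF8 KO, and 3979 and 6286 in WT. The genotypes overlapped, and the lowest and the highest array came from WT and IRF4/8 DKO. The means were 6756 ± 1279 in IRF4/8 DKO, 6183 ± 637 in IRF8 KO and 5133 ± 1631 in WT (SD, n = 2 each). The log2 fold change against WT was 0.42 in IRF4/8 DKO (95% interval -0.15 to 0.99, limma adjusted p = 0.709) and 0.30 in IRF8 KO (-0.27 to 0.87, adjusted p = 0.642). No neighbours in the order IRF4/8 DKO, IRF8 KO, WT differed beyond their spread.

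The Ms4a6 genes lay above WT in both knockout genotypes. Ms4a6d, whose protein associates with other receptors in macrophages, was measured by 3 probe sets. Probe set 1419599_s_at read 349 and 523 in IRF4/8 DKO, 359 and 379 in IRF8 KO, and 62.0 and 117 in WT. Both knockout genotypes lay above WT without overlap, and the IRF8 KO arrays lay inside the range of the IRF4/8 DKO arrays. Its log2 fold change was 2.19 in IRF4/8 DKO (4.56-fold, SE 0.47, 95% interval 1.13 to 3.24, limma adjusted p = 0.13) and 1.98 in IRF8 KO (3.94-fold, 0.92 to 3.03, adjusted p = 0.139). Over both knockout genotypes it was 2.08 (4.24-fold, SE 0.40, 1.17 to 2.998, adjusted p = 0.071). The call depended on the arrays in the fit. For IRF4/8 DKO against WT, 3 of 19 settings passed, and the adjusted p ran from 0.0387 to 1. With only IRF4/8 DKO and WT in the fit the adjusted p was 0.0389, and leaving out IRF8 KO replicate 1 gave 0.0396 and leaving out replicate 2 gave 0.0387. Leaving out IRF4/8 DKO replicate 1 gave 0.194 and replicate 2 gave 0.907, leaving out WT replicate 1 gave 1 and replicate 2 gave 0.358, and sex as a block gave 0.221. For both knockout genotypes against WT 3 of 18 settings passed, with adjusted p from 0.0252 (IRF8 KO replicate 1 left out) to 0.918 (WT replicate 1 left out), and leaving out IRF8 KO replicate 2 gave 0.0325. Probe set 1419598_at was dimmer, with 105 and 130 in IRF4/8 DKO, 128 and 19.4 in IRF8 KO, and 11.7 and 42.0 in WT. Here IRF4/8 DKO lay above WT (log2 fold change 1.90, SE 0.72, adjusted p = 0.454), while IRF8 KO replicate 2 lay between the WT arrays (0.92, adjusted p = 0.619). Over both knockout genotypes this probe set had 1.41 (adjusted p = 0.43), and an adjusted p of 0.0425 without IRF8 KO replicate 2. The third probe set, 1449539_at, stayed at 1.18 to 6.44 on all arrays and was not tested. The suffix _s_at marks probes shared by more than one transcript, so the signal of 1419599_s_at may include near copies of the gene.

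Ms4a6c, found in monocytes, read 2025 and 2155 in IRF4/8 DKO, 1956 and 2028 in IRF8 KO, and 1059 and 935 in WT. The 4 knockout arrays lay close together and above both WT arrays. The means were 2090.0 ± 92.0 in IRF4/8 DKO, 1992 ± 51.0 in IRF8 KO and 997 ± 88.1 in WT (SD, n = 2 each), so the gap to WT exceeded the spread within each genotype. The log2 fold change was 1.06 in IRF4/8 DKO (2.09-fold, 95% interval 0.42 to 1.71, limma adjusted p = 0.24) and 0.99 in IRF8 KO (1.99-fold, SE 0.28, 0.35 to 1.64, adjusted p = 0.197). For both together it was 1.03 (SE 0.25, adjusted p = 0.129). The other probe set, 1457725_at, was dim, with 43.1 and 38.7 in IRF4/8 DKO, 69.0 and 39.7 in IRF8 KO, and 45.9 and 35.9 in WT. Its genotypes overlapped, with a log2 fold change of 0.01 in IRF4/8 DKO (adjusted p = 0.999) and 0.31 in IRF8 KO (adjusted p = 0.79).

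Ms4a6b, a co-stimulatory membrane protein of mouse T cells, read 2019.7 and 1977 in IRF4/8 DKO, 2404 and 2491 in IRF8 KO, and 1297 and 912 in WT. The 3 genotypes did not overlap, with IRF8 KO highest and WT lowest. The means were 1998 ± 30.0 in IRF4/8 DKO, 2447 ± 61.6 in IRF8 KO and 1105 ± 272 in WT (SD, n = 2 each). The log2 fold change against WT was 0.87 in IRF4/8 DKO (1.83-fold, 95% interval 0.20 to 1.55, limma adjusted p = 0.391) and 1.16 in IRF8 KO (2.24-fold, SE 0.30, 0.49 to 1.84, adjusted p = 0.165). Over both it was 1.02 (SE 0.26, adjusted p = 0.146). IRF4/8 DKO and IRF8 KO, the nearest neighbours in this order, had a log2 difference of -0.29 with an interval of -0.96 to 0.38 (adjusted p = 0.798). The dimmer probe set 1439956_at read 161 and 107 in IRF4/8 DKO, 138 and 103 in IRF8 KO, and 119 and 82.9 in WT, and its genotypes overlapped.

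In IRF4/8 DKO against IRF8 KO the log2 differences were 0.21 for Ms4a6d (95% interval -0.85 to 1.26, adjusted p = 0.918) and 0.07 for Ms4a6c (-0.57 to 0.71, adjusted p = 0.961). Both intervals span 0. Within each sex, with 1 array per genotype and no test, the brighter Ms4a6 probe sets lay above WT. This follows from knockout and WT arrays that did not overlap, and adds no separate evidence. In male IRF8 KO the dimmer probe sets of Ms4a6b (1439956_at, -0.19) and Ms4a6c (1457725_at, -0.17) lay below WT. On the brighter probe sets the log2 differences in male and female arrays were 2.31 and 2.07 for Ms4a6d in IRF4/8 DKO and 2.42 and 1.54 in IRF8 KO. For Ms4a6c they were 0.93 and 1.20 in IRF4/8 DKO and 0.93 and 1.06 in IRF8 KO. For Ms4a6b they were 0.64 and 1.11 in IRF4/8 DKO and 0.94 and 1.39 in IRF8 KO. All 168 alternative values of the 9 log2 fold changes of these 3 genes against WT were positive. They used the representative probe sets or the average over all probe sets of the gene. Many of the settings could not change a sign, since the filter, the variance model, the blocks and arrays outside the comparison leave the log2 fold change as it was. Leaving out an array of the comparison could not change the sign on the representative probe sets either, since their knockout and WT arrays did not overlap. The count of positive values was therefore largely fixed in advance. The dimmer probe sets did not all keep their sign. Ms4a6d 1419598_at went down to -0.19 in IRF8 KO (1 of 19 settings negative), and Ms4a6c 1457725_at was negative in 2 of 18 settings in IRF4/8 DKO and 1 of 18 in IRF8 KO.

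**Figure D2:**
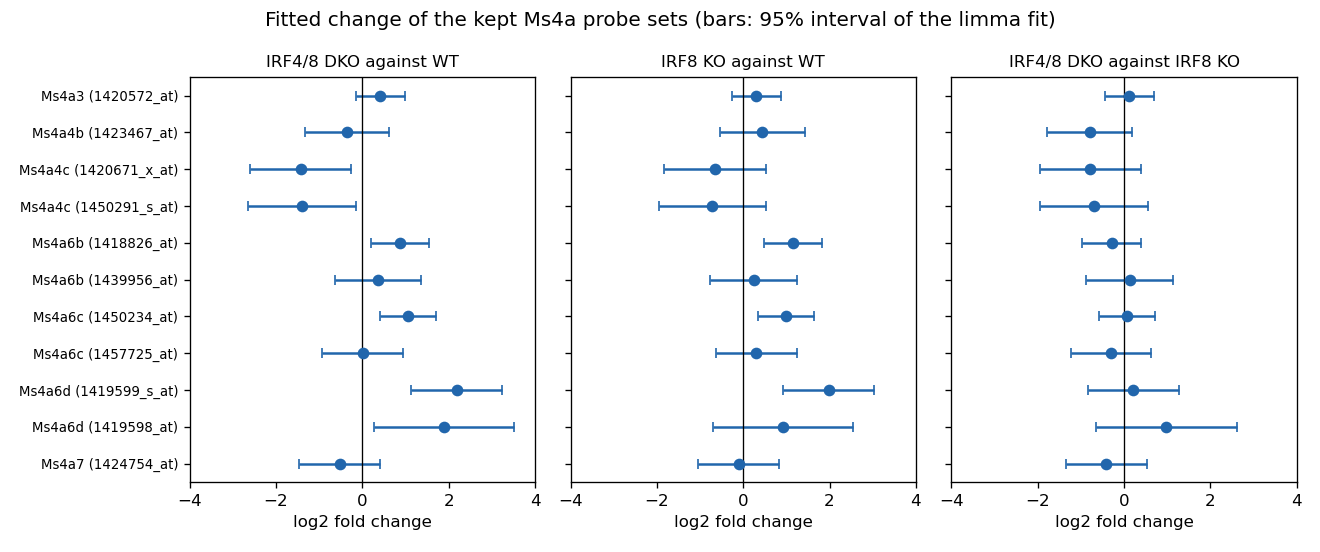
Log2 fold changes on the scale log2(intensity + 10.5), with 95% intervals from limma as bars, for the 11 Ms4a probe sets tested, in 3 panels, one per comparison. The brighter Ms4a6b, Ms4a6c and Ms4a6d probe sets lie to the right of 0 in IRF4/8 DKO and IRF8 KO against WT, and the Ms4a4c probe sets lie to the left of 0 in IRF4/8 DKO against WT.

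The upstream sequences of the Ms4a6 pair and the Ms4a4 pair are shown because each pair is alike in sequence, and their values by genotype can be read beside them. RefSeq's GRCm38.p6 promoter windows were available for Ms4a7 (a pair of windows), Ms4a4c, Ms4a4b, Ms4a6c, Ms4a6b and Ms4a3. Each sequence below is the 250 bases before the transcription start, 5′ to 3′ on the gene's strand, and capitals mark a match to GAAANNGAA, a short form of the interferon-stimulated response element (ISRE) to which IRF factors bind.
Ms4a6c, chr19:11469118-11469367, plus strand: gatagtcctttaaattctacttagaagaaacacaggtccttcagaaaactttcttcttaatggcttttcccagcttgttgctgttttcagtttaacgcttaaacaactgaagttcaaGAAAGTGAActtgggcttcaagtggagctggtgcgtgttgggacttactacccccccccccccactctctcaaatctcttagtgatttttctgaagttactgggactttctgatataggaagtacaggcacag
Ms4a6b, chr19:11518309-11518558, plus strand: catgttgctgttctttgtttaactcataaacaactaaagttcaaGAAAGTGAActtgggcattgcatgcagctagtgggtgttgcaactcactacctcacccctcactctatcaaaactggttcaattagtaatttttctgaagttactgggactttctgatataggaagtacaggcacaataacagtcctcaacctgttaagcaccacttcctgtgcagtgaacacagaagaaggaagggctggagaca
Ms4a4c, chr19:11407411-11407660, plus strand: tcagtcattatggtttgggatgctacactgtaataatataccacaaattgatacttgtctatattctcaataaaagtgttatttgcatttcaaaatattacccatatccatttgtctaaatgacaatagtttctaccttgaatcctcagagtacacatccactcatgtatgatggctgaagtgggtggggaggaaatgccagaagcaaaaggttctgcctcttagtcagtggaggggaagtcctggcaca
Ms4a4b, chr19:11443308-11443557, plus strand: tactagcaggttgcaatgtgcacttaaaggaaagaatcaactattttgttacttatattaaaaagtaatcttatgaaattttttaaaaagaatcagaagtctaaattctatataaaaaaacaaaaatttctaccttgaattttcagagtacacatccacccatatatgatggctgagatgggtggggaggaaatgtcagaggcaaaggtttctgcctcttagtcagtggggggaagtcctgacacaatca

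The Ms4a6c and Ms4a6b windows aligned over 182 columns with 152 identical bases (83.5%), and both held GAAAGTGAA, starting at -133 in Ms4a6c and at -206 in Ms4a6b. The Ms4a4c and Ms4a4b windows aligned over 128 columns with 114 identical bases (89.1%) and held no match. The motif was added after the promoters had been read. It was searched on both strands in windows of 300 bases, and 8.56% of all 32851 RefSeq promoters held it, as did 4 of the 7 member windows, the other matches being GAAAACGAA and GAAAAGGAA in the Ms4a7 windows. The full ISRE core, which is the short form followed by a further A, so that each match to it also matches the short form, was found in 3.44% of all promoters and in 0 of the 7 windows. The Ets-IRF composite motif (2.72% of all), the PU.1 motif GAGGAAGT (3.2%) and the C/EBP motif TTGCGCAA (0.183%) were also in 0 of the 7, and the E-box CANNTG (72.3%) was in 4 of the 7. A match describes the letters in a window and is not a site.

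Ms4a4c, listed among the interferon-induced genes of mouse cells, had WT highest and IRF4/8 DKO lowest. Probe set 1420671_x_at read 71.7 and 104 in IRF4/8 DKO, 235 and 103 in IRF8 KO, and 316 and 199 in WT. IRF4/8 DKO lay below WT without overlap, and the 2 IRF8 KO arrays differed by more than 2-fold, one lying with WT and the other with IRF4/8 DKO. The log2 fold change against WT was -1.43 in IRF4/8 DKO (2.69-fold lower, 95% interval -2.60 to -0.26, limma adjusted p = 0.428) and -0.65 in IRF8 KO (-1.82 to 0.52, adjusted p = 0.623). The second probe set, 1450291_s_at, read 56.5 and 106 in IRF4/8 DKO, 205 and 83.7 in IRF8 KO, and 287 and 173 in WT, with a log2 fold change of -1.40 in IRF4/8 DKO (adjusted p = 0.482) and -0.71 in IRF8 KO (adjusted p = 0.617). The probe sets ordered the arrays alike, though the suffixes _x_at and _s_at mean that either can also take up signal from near copies.

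Ms4a4b, a membrane protein of T cells, read 143 and 202 in IRF4/8 DKO, 319 and 289 in IRF8 KO, and 263 and 184 in WT. IRF8 KO lay above the other genotypes, and IRF4/8 DKO and WT overlapped. The log2 difference was -0.80 for IRF4/8 DKO against IRF8 KO (SE 0.43, 95% interval -1.78 to 0.18, limma adjusted p = 0.645). Against WT it was -0.35 in IRF4/8 DKO (adjusted p = 0.877) and 0.44 in IRF8 KO (-0.54 to 1.43, adjusted p = 0.70). The other probe set, 1425325_at, read 5.64 to 23.2 on all arrays and was not tested. Ms4a4b and Ms4a4c, whose upstream sequences are alike over 128 columns, differed in their order of genotypes.

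Ms4a7, a gene of mature macrophages, was dim on all arrays. Probe set 1424754_at read 22.1 and 11.4 in IRF4/8 DKO, 34.9 and 17.5 in IRF8 KO, and 27.8 and 28.1 in WT. Both IRF4/8 DKO arrays lay below WT, and IRF8 KO straddled WT. The log2 fold change was -0.52 in IRF4/8 DKO (SE 0.41, limma adjusted p = 0.798) and -0.11 in IRF8 KO (adjusted p = 0.937). The second probe set, 1445365_at, read 3.35 to 14.7 and was not tested.

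Ms4a1, the CD20 gene, gave no signal above the filter. Probe set 1423226_at read 15.8 and 17.6 in IRF4/8 DKO, 21.2 and 10.3 in IRF8 KO, and 15.1 and 11.2 in WT. Probe set 1450912_at read 10.6 and 4.23 in IRF4/8 DKO, 4.41 and 12.4 in IRF8 KO, and 8.40 and 12.8 in WT. On the first probe set both IRF4/8 DKO arrays lay above both WT arrays, all of them below the filter, and IRF8 KO overlapped the other genotypes, while on the second all genotypes overlapped. Of the 14 B cell markers, 9 were tested, with a summed intensity of 1939 and 3360 in IRF4/8 DKO, 2440 and 4118 in IRF8 KO, and 1547 and 1229 in WT. Their mean log2 value overlapped between IRF4/8 DKO and WT. By gene, 5 of the 9 were higher and 4 lower in IRF4/8 DKO (median log2 fold change 0.005). In IRF8 KO 7 were higher and 2 lower (median 0.35). Vpreb1, the surrogate light chain gene of B cell precursors, rose over both knockout genotypes against WT (log2 fold change 2.22, limma adjusted p = 0.0441), with 2.08 in IRF4/8 DKO (adjusted p = 0.119) and 2.35 in IRF8 KO (adjusted p = 0.0985). The B cell markers Pax5, Blk, Blnk and Fcer2a were below the filter.

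Other genes of the MS4A family were measured too. Of 16 listed genes, Ms4a2 not among them, 10 were on the array and 4 had a tested probe set (Ms4a10, Ms4a4d, Tmem176a and Tmem176b), of which 0 were called in any comparison. Tmem176a, which encodes a related multi-pass membrane protein, read 378 and 294 in IRF4/8 DKO, 225 and 252 in IRF8 KO, and 649 and 572 in WT on its representative probe set. All knockout arrays lay below WT on it, with a log2 fold change of -0.85 in IRF4/8 DKO (limma adjusted p = 0.599) and -1.32 in IRF8 KO (adjusted p = 0.219). They also lay below WT on probe set 1423909_at. On the dimmer 1425603_at, IRF8 KO replicate 1 (134) lay above both WT arrays (97.1 and 57.2). Tmem176b read 532 and 828 in IRF4/8 DKO, 879.8 and 808 in IRF8 KO, and 1490.3 and 1137 in WT, again with every knockout array below WT (IRF4/8 DKO log2 fold change -0.96, adjusted p = 0.48). The median over the 4 genes was -0.64 in IRF4/8 DKO and -0.46 in IRF8 KO. Ms4a2, the gene beside Ms4a6d, read 78.3 and 69.3 in IRF4/8 DKO, 319 and 66.7 in IRF8 KO, and 1584 and 1415 in WT on one probe set, with a log2 fold change of -4.16 in IRF4/8 DKO (adjusted p = 0.0447) and -3.24 in IRF8 KO (adjusted p = 0.101).

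The cluster and its surroundings on chromosome 19 were set side by side. Of the 22 cluster genes in RefSeq's order, 10 had a tested probe set, and log2 fold changes in IRF4/8 DKO against WT ran from -4.16 to 2.19, with a median of 0.03, while in IRF8 KO they ran from -3.24 to 1.98, with a median of 0.10. Of the 20 flanking genes, 12 were tested. They ran from -2.93 to 0.42 with a median of -0.12 in IRF4/8 DKO and from -2.57 to 0.62 with a median of -0.21 in IRF8 KO, the lowest being Stx3 in both (named after its values were seen), and 0 were called in any comparison (limma, unadjusted p under 0.05 for 1 of the 12 in IRF4/8 DKO and 2 of the 12 in IRF8 KO). Ms4a6c, Ms4a6b and Ms4a6d lay close together in this order but not side by side. Between Ms4a6b and Ms4a6d was Ms4a4d, with a log2 fold change of -0.44 in IRF4/8 DKO (adjusted p = 0.911) and -0.28 in IRF8 KO (adjusted p = 0.896).

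**Figure D3:**
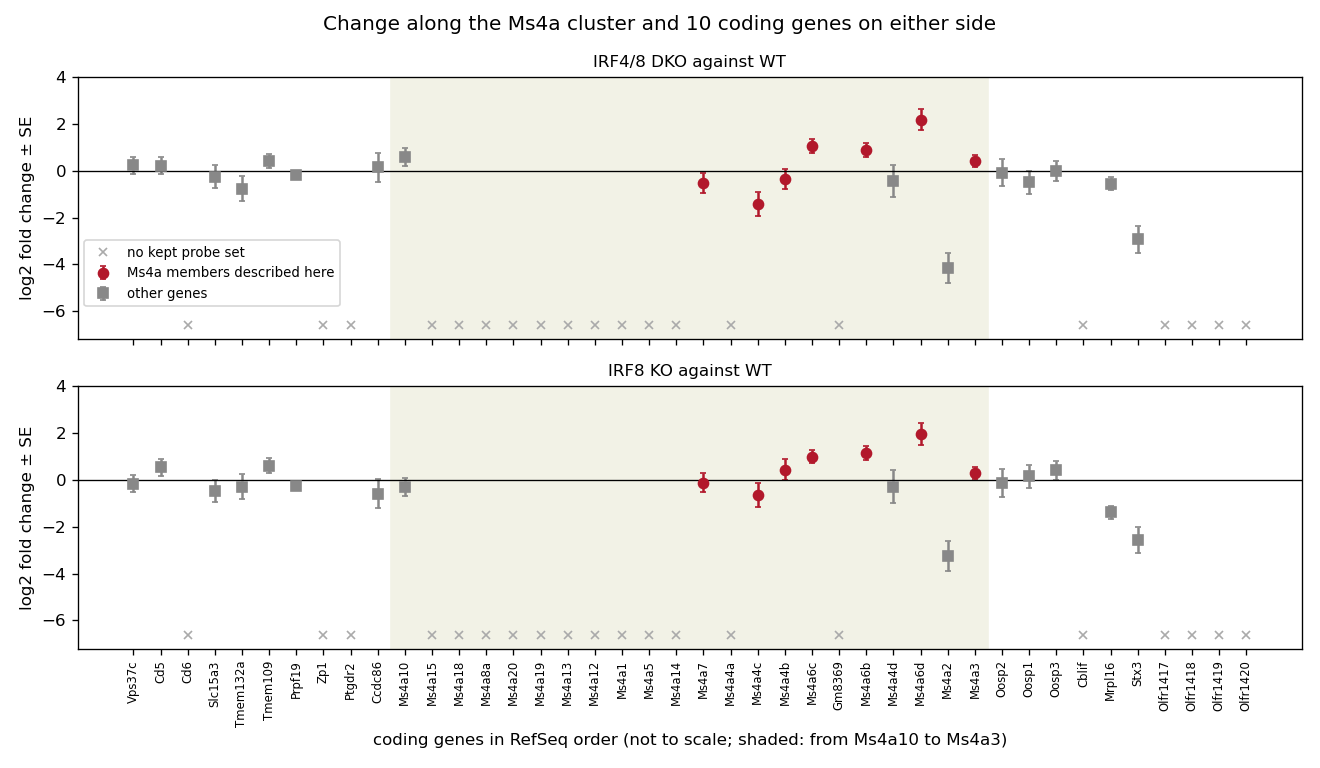
Log2 fold change against WT, on the scale log2(intensity + 10.5), of genes in RefSeq order along the Ms4a cluster and its flanks, for IRF4/8 DKO (upper panel) and IRF8 KO (lower panel), with SE as bars and crosses for genes without a tested probe set. Members lie on both sides of 0, and Ms4a2 is lowest.

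The arrays' values of members were compared with those of other genes by Pearson's r over the 6 arrays, among 13266 genes, as a description. The 6 points share the genotype difference and the scaling of each array. The genes most like Ms4a6d were Scnn1a (r = 0.9940), Sgip1 (0.9915), AB124611 (0.9896), Gramd3 (0.9886) and Ccr2 (0.9884). For Ms4a6c they were BB031773 (0.9963), Ptgfrn (0.9945), Cd300lb (0.9944), AI839979 (0.9943) and Cnn3 (0.9937). For Ms4a6b they were Selenop (0.9829), Acaa1a (0.9810), Kcnip3 (0.9781), Insr (0.9774) and Klf7 (0.9772). For Ms4a3 they were Prtn3 (0.9906), Gsdmd (0.9846), Pi4kb (0.9818), S100a8 (0.9797) and Atg12 (0.9794). Among members, Ms4a6b and Ms4a6c had r = 0.939, Ms4a6c and Ms4a6d 0.938, and Ms4a4c and Ms4a6d -0.740.

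Values of markers of other cell types are given beside these results. Of 14 monocyte markers, 12 were on the array and 11 were tested. Their summed intensity was 26835 and 36703 in IRF4/8 DKO, 26265 and 29973 in IRF8 KO, and 14346 and 16982 in WT, without overlap between knockout and WT. Their mean log2 value, which gives each gene equal weight, overlapped between IRF8 KO and WT. By gene, 7 of the 11 were higher and 4 lower in IRF8 KO, and 9 were higher and 2 lower in IRF4/8 DKO. The lowest in IRF8 KO were Ly86 (-5.40) and Klf4 (-2.62, limma adjusted p = 0.173, named after its value was seen). In IRF4/8 DKO against WT 3 of the 11 rose, Ccr2, the chemokine receptor of monocytes (log2 fold change 3.13, limma adjusted p = 0.0285), Mpeg1 (2.07, adjusted p = 0.0372) and Cd14 (2.46, adjusted p = 0.0447, named after its value was seen). Cd14 passed the filter only through the IRF4/8 DKO arrays (84.39 and 123.48). It read 12.96 and 13.95 in IRF8 KO and 10.26 and 9.72 in WT, all below the filter. Ly86 passed only through the WT arrays (625.49 and 574.8). Its knockout arrays lay below the filter, with 11 and 3.52 in IRF4/8 DKO and 4.7 and 3.22 in IRF8 KO. Ly86, a partner of a Toll-like receptor relative, fell in IRF4/8 DKO (-5.14, adjusted p = 0.00781) and in IRF8 KO (-5.40, adjusted p = 0.00848). When either WT array was left out, 0 of all probe sets passed in these comparisons, and 0 passed in IRF4/8 DKO against WT when either IRF4/8 DKO array was left out or sex was a block, which covers every call in that comparison named here. Cx3cr1 was below the filter. Of 13 macrophage markers, 8 were tested, with sums of 2026 and 2886 in IRF4/8 DKO, 1831 and 2083 in IRF8 KO, and 1242 and 1413 in WT, and C1qb, C1qc, Vsig4 and Timd4 were below the filter. Adgre1, the F4/80 antigen of macrophages, rose in IRF4/8 DKO (log2 fold change 3.11, adjusted p = 0.0342), and the other 7 did not pass. There 6 of the 8 were higher and 2 lower, the lowest being Vcam1 (-2.08, limma adjusted p = 0.174). Of 14 T and NK cell markers, 9 were tested, with sums of 1535 and 2317 in IRF4/8 DKO, 1559 and 1915 in IRF8 KO, and 1527 and 1479.5 in WT, and Cd3e, Cd3d and Cd3g were below the filter. The 11 neutrophil maturation markers summed to 28985 and 56986 in IRF4/8 DKO, 33883 and 58564 in IRF8 KO, and 13595 and 33649.5 in WT. Of these, 10 were higher and 1 lower than WT in each knockout genotype. Mmp8, a granule collagenase, rose in IRF4/8 DKO (log2 fold change 3.996, limma adjusted p = 0.0416). On the mean log2 scale the T and NK cell, basophil and mast cell, and erythroid and megakaryocyte markers were highest in the WT arrays. The median log2 fold change of the 10 erythroid and megakaryocyte genes tested was -3.33 in IRF4/8 DKO (1 higher, 9 lower), where Pf4 (-5.87, limma adjusted p = 0.0261) and Tfr2 (-5.10, adjusted p = 0.0285) fell, and -1.97 in IRF8 KO (0 higher, 10 lower) with 0 called (6 at an unadjusted p under 0.05). For the 8 basophil and mast cell genes it was -1.27 in IRF4/8 DKO (2 higher, 6 lower), where Cpa3 (-5.39, limma adjusted p = 0.02) and Gata2 (-4.60, adjusted p = 0.0285) fell, and -1.06 in IRF8 KO (2 higher, 6 lower) with 0 called (4 at an unadjusted p under 0.05). For the 9 T and NK cell genes it was -0.11 in IRF4/8 DKO (4 higher, 5 lower) and -0.81 in IRF8 KO (3 higher, 6 lower). Over both against WT 3 were higher and 6 lower, and Lat fell (-2.70, limma adjusted p = 0.0459). Lat passed the filter only through the WT arrays (240 and 82.0). Below the filter, it read 12.7 and 15.8 in IRF4/8 DKO and 18.6 and 6.61 in IRF8 KO. Pf4 (9.85 and 11.16), Tfr2 (12.33 and 11.06) and Cpa3 (11.86 and 10.91) also read below the filter in IRF4/8 DKO. Mmp8 did so in WT (11.65 and 10.19). The part of these markers in the Ms4a6 values was not tested. In sorted bulk RNA, fewer cells of a type and less RNA per cell cannot be told apart.

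**Figure D4:**
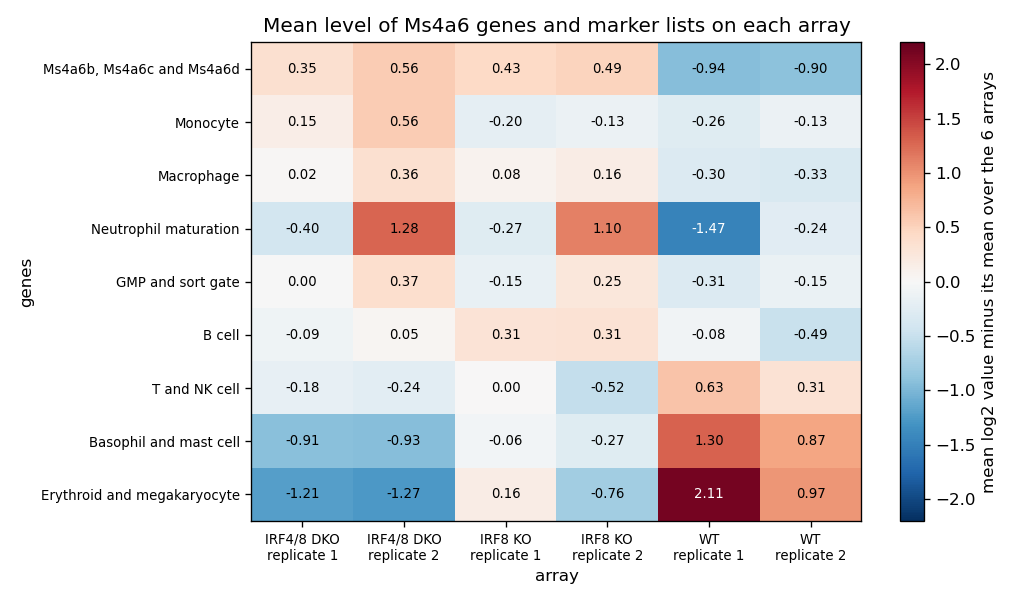
Mean log2 intensity of each marker list on each array, relative to its mean over the 6 arrays, in log2 units. The Ms4a6 genes were at 0.35 and 0.56 in IRF4/8 DKO, 0.43 and 0.49 in IRF8 KO, and -0.94 and -0.90 in WT, while the monocyte markers were at 0.15 and 0.56 in IRF4/8 DKO, -0.20 and -0.13 in IRF8 KO, and -0.26 and -0.13 in WT.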

How the data were processed

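RNA of sorted GMPs from 6 mice was hybridised to 1-colour Affymetrix Mouse Genome 430 2.0 arrays, 2 per genotype, with biotin-labelled cRNA per the labels. The deposited table holds linear intensity values (0.69 to 16563), which the authors normalized and modelled from perfect-match minus mismatch differences with dChip 1.3, per the series' design text. The sources used here give neither baseline array nor filters nor detection calls, so a dim value has no detection limit beside it.

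Probe sets were named through the platform annotation (34945 of 45037 with 1 symbol, 932 with several, 9160 with none). For 34741 of them the gene identifier was found in RefSeq GRCm38.p6, and 0 symbols changed. Members were matched by platform symbol or by the current symbol of the same gene identifier, not by synonym, since old synonyms cross Ms4a1 and Ms4a2. A gene was represented by whichever of its tested probe sets had the highest mean log2 value. Probe sets above the 40th percentile of their array on at least 2 of 6 arrays were kept (29783), and 15254 were left out. Values were analysed as log2(intensity + 10.5), the added 10.5 being the 25th percentile over the table, with limma 3.58.1 in R 4.3.3 (lmFit, and eBayes with a trend on mean level) on all 6 arrays with 3 residual and 5.84 prior degrees of freedom. P-values were adjusted by Benjamini-Hochberg over the 29783 probe sets, threshold 0.05, and the fit was tested on simulated data. The comparisons of IRF4/8 DKO, IRF8 KO and both with WT share the WT arrays. The labels describe 1 mouse per array, and the number of arrays limits the precision.

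Upstream stretches were aligned locally with Biopython 1.88. All 8 members were named with every probe set. Also named were the other MS4A family genes with a tested probe set, up to 3 markers per list and comparison by lowest p, and the 5 genes most like each of the 4 members with the largest mean level. Further markers, those past the threshold, those of the gate, those below the filter and Klf4, were named after their values were seen. The members and lists were chosen with earlier results of these data known, and the motif GAAANNGAA was added after the promoters had been read. Alternatives covered the pseudocount, the filter, the normalization, the variance model, the arrays in the fit, sex, age, the replicate number and each array left out in turn.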

Additional observations from a re-analysis of the deposited data

Results flagged for a closer look

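In 8 cases a probe set of the Ms4a genes lay on opposite sides of WT in the male and the female arrays. Each value is a log2 difference between 1 knockout array and 1 WT array of the same sex, so the difference between the sexes was not tested, and the mice compared also differed in age. In IRF8 KO, male and female arrays read 0.74 and -0.13 for Ms4a3, -1.53 and 0.23 for Ms4a4c on 1420671_x_at, and -1.66 and 0.23 for Ms4a4c on 1450291_s_at. They read -0.19 and 0.67 for Ms4a6b on its dimmer probe set 1439956_at, -0.17 and 0.78 for Ms4a6c on its dimmer probe set 1457725_at, and -0.45 and 0.23 for Ms4a7. In IRF4/8 DKO, male and female arrays read -0.83 and 0.12 for Ms4a4b, and -0.073 and 0.086 for Ms4a6c on 1457725_at. The brighter probe sets of Ms4a6b, Ms4a6c and Ms4a6d had the same sign in both sexes, which follows from knockout and WT arrays that did not overlap. Groups of 2 arrays are too small to test for outlying samples.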

How the results depend on the processing

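Of 521 alternative values of the 28 member log2 fold changes, 504 kept their direction and side of the threshold, 6 passed it and 11 changed sign. Changing the filter or variance model, blocking by sex or replicate number, or leaving out arrays outside a comparison leaves log2 fold changes unchanged. Such settings could move only the side of the threshold, not the direction. The count of member probe sets called was 0 in each comparison. For IRF4/8 DKO against WT it was 1 with only the genotypes compared, and 0 to 1 when arrays were left out. For both knockout genotypes against WT it was 0 to 2 when arrays were left out, and 1 with the replicate block (Ms4a6d, adjusted p = 0.0357). Over all tested probe sets, the deviation of replicate 1 from its genotype mean correlated at 0.187 between IRF4/8 DKO and WT. The value was 0.0411 between IRF8 KO and WT and 0.211 between IRF4/8 DKO and IRF8 KO. These values cannot decide whether same-numbered arrays share more than a number, and the main fit did not pair them. With the replicate block more probe sets were called over the whole array. The counts were 216 against 89 in IRF4/8 DKO, 209 against 9 in IRF8 KO, and 391 against 179 in both against WT.

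The sign changes were in small log2 values. With arrays left out, Ms4a3 ran from -0.028 to 0.63 in IRF8 KO against WT and from -0.076 to 0.31 in IRF4/8 DKO against IRF8 KO, Ms4a6d from -0.077 to 0.49 in IRF4/8 DKO against IRF8 KO, Ms4a4b from -0.20 to 0.29 in both against WT, and Ms4a7 from -0.46 to 0.24 in IRF8 KO against WT. Averaging all probe sets of a gene gave -0.18 for Ms4a4b in both against WT, -0.12 for Ms4a6c and 0.098 for Ms4a7 in IRF4/8 DKO against IRF8 KO. Ms4a7 in IRF8 KO against WT read 7.4e-05 with quantile normalization and 0.032 with median centring. The cause was not tested.

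Counts over all probe sets moved more. For IRF4/8 DKO against WT, 89 were called with all arrays, 469 on leaving out IRF8 KO replicate 1, 484 on leaving out replicate 2, and 0 on leaving out any one IRF4/8 DKO or WT array. The count for IRF8 KO against WT was 9. It was 1090 on leaving out IRF8 KO replicate 1, 193 on leaving out replicate 2, 2 on leaving out one IRF4/8 DKO array and 0 on leaving out one WT array. In both against WT it was 179, and ran from 0 (without either WT array) to 1020 (without IRF8 KO replicate 1). Between IRF4/8 DKO and IRF8 KO it was 0, and 200 without IRF8 KO replicate 1. Other alternatives gave 0 (sex as a block) to 476 (only the genotypes compared) in IRF4/8 DKO against WT, 2 (sex as a block) to 209 (replicate block) in IRF8 KO against WT, and 8 (sex as a block) to 391 (replicate block) in both against WT. Median centring moved the median of all probe sets to 0.18 in IRF4/8 DKO and 0.08 in IRF8 KO, against -0.04 and -0.06. With 2 arrays per genotype, small differences and dim probe sets such as those of Ms4a1 and Ms4a7 cannot be resolved.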
